A study of Saccharomyces cerevisiae with 4 samples.

Results

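The 35 nuclear genes of oxidative phosphorylation examined here encode the NADH dehydrogenases NDI1, NDE1 and NDE2, 4 subunits of complex II, 8 of complex III, 9 of complex IV and 11 of the ATP synthase of the budding yeast Saccharomyces cerevisiae. They were chosen by name, and a gene was measured where at least 1 array probe was annotated as lying inside it. Of the 35 genes, 33 had such probes, 93 in all, among 5493 genes with a probe inside. QCR7 and COX9 had none and were measured only through probes in their promoters. The measurement was chromatin immunoprecipitation on tiling arrays (ChIP-chip) of 2 subunits of RNA polymerase II. Rpb4 pairs with Rpb7 in a stalk that can leave the enzyme, and Rpb3 belongs to the core. The Rpb4 group and the Rpb3 group held 2 arrays each, from an S288c strain with a TAP tag on Rpb4 and an S288c strain with a TAP tag on Rpb3. All cells were grown in YPD, a glucose medium, at 25 °C to log phase at an optical density of about 0.8, and fixed with 1% formaldehyde for 20 min. Tagged protein was collected on IgG beads from chromatin sheared to about 400 to 500 bp. Immunoprecipitated DNA (IP) carried Cy5 and whole-cell extract DNA (WCE), the input, carried Cy3 on all 4 arrays, so a dye effect would not cancel. The array's probes were 60 nucleotides long and about 290 bp apart. An untagged strain was not analysed here. Since nothing in the labels ties the arrays of a pair to separate cultures, p-values cover only the spread between these arrays, which may be technical.

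Oxidative phosphorylation passes electrons from NADH and succinate along the inner mitochondrial membrane to oxygen and uses the resulting proton gradient to make ATP. Budding yeast has no proton-pumping complex I: single-subunit dehydrogenases feed ubiquinone instead, together with complex II (succinate dehydrogenase), and complex III passes the electrons through cytochrome c to complex IV. Most subunits are encoded in the nucleus, a few in mitochondrial DNA, which a separate mitochondrial polymerase transcribes. In glucose medium yeast ferments, and many of these nuclear genes are held below the level they reach on carbon sources that need respiration. Activators of respiratory genes include Hap2, Hap3, Hap4 and Hap5 and, in response to heme, Hap1.

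Occupancy is given as log2(IP/WCE), averaged over the probes inside a gene after the median of the array's 41775 data probes was subtracted. Zero thus marks the median probe rather than DNA free of polymerase. Over 5490 genes with a value on every array, gene values of the Rpb4 arrays correlated with each other at 0.954 and those of the Rpb3 arrays at 0.93 (Pearson's r across genes, which are not independent). The gene values of Rpb4 arrays 1 and 2 had SDs of 0.56 and 0.59, and those of Rpb3 arrays 1 and 2 had SDs of 0.63 and 0.72, so the scale was widest on Rpb3 array 2. Calls used limma with Benjamini-Hochberg adjustment over all 5490 genes at 0.05. The genes of the tagged proteins themselves lay above the median probe: RPB4 stood at 0.34 and 0.48 on the Rpb4 arrays and 0.80 and 0.96 on the Rpb3 arrays, and RPB3 at 0.47 and 0.46 on the Rpb4 arrays and 0.73 and 1.04 on the Rpb3 arrays. At RPB3, on chromosome 9, the extract signal in the Rpb4 strain differed by -0.31 (limma adjusted p = 0.0101) and the IP signal alone by -0.74.

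Most of the nuclear oxidative phosphorylation genes lay above the median probe with Rpb3, and about as many did as did not with Rpb4. With Rpb4, 17 of the 33 measured genes (51.5%) lay above the median probe, where 37.9% of all genes did, and 3 (9.09%) lay below, where 25.8% did (limma). With Rpb3, 24 of 33 (72.7%) lay above, where 38.4% of all genes did, and 2 (6.06%) lay below, where 29.2% did. The median over the 33 genes was 0.27 with Rpb4 and 0.48 with Rpb3, beside 0.05 with Rpb4 and 0.04 with Rpb3 over all genes. All 17 genes above the median probe with Rpb4 were also above it with Rpb3, 7 more passed with Rpb3 and not with Rpb4, and 6 passed in neither direction with either subunit. Coverage was thin: 11 of the 33 genes had 1 probe, 19 had 1 or 2, and the longest, SDH1, had 8. Centred on each array's 25th percentile instead, 27 genes lay above with Rpb4, where 65.5% of all genes did, and 0 lay below with Rpb4, where 5.46% did, or with Rpb3, where 5.68% did. Without Rpb4 array 1 or without Rpb4 array 2, 10 genes lay above with Rpb4, where 19.5% and 18.4% of all genes did, and 0 lay below with Rpb4, where 5.7% and 6.3% did, or with Rpb3, where 19.6% did in both cases.

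**Figure D1:**
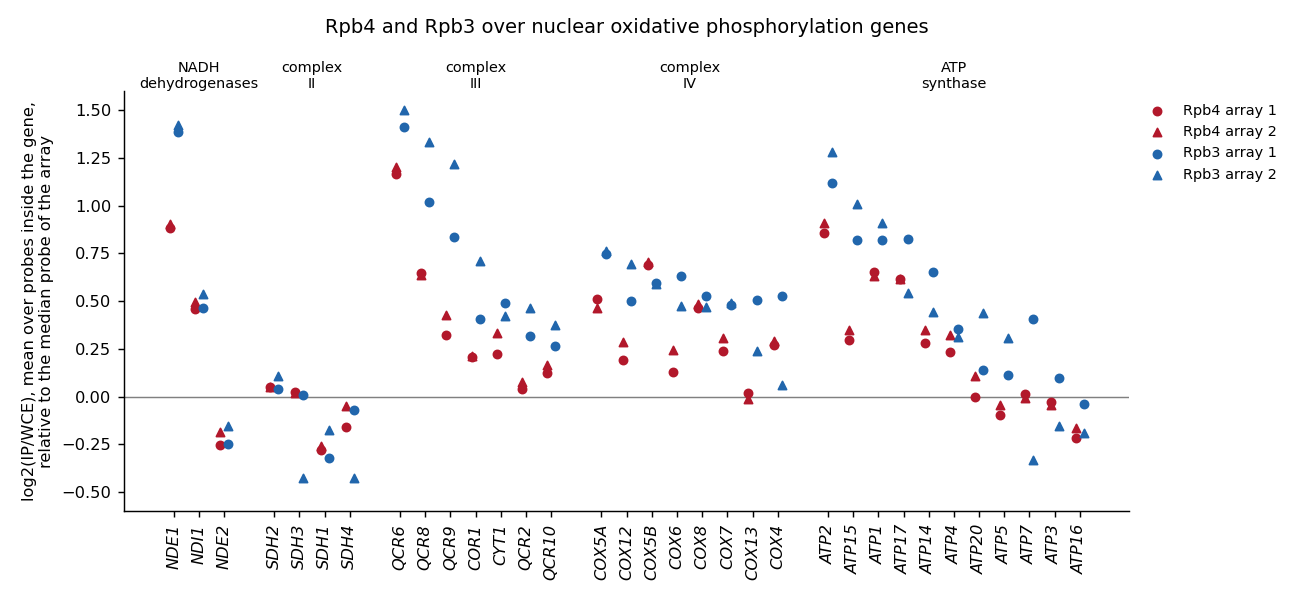
Occupancy of the 33 measured genes on each array, by complex and, within a complex, by falling Rpb3 mean. The y axis is log2(IP/WCE) as a mean per gene, with the median probe at 0 (grey line), red points are the Rpb4 arrays and blue points the Rpb3 arrays, circles array 1 and triangles array 2. NDE1, QCR6 and ATP2 stand highest on the Rpb4 arrays, between 0.86 and 1.20. In 19 genes both red points lie below both blue points, an order that 28.7% of all genes had.

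The NADH dehydrogenases spanned nearly the whole range of the set. NDE1, which oxidises cytosolic NADH at the outer face of the inner membrane, was among the most occupied genes (6 probes, chromosome 13, 554800 to 556391, positions as the files give them). It stood at 0.88 and 0.90 on the Rpb4 arrays and at 1.39 and 1.42 on the Rpb3 arrays, above the median probe with both subunits. Its values in the 2 groups did not overlap. NDI1, which oxidises NADH inside the matrix, stood at 0.46 and 0.50 on the Rpb4 arrays and 0.46 and 0.53 on the Rpb3 arrays. NDI1 thus had nearly one level on all 4 arrays. NDE2, the second dehydrogenase of the outer face, was one of the least occupied genes, at -0.25 and -0.18 on the Rpb4 arrays and -0.25 and -0.16 on the Rpb3 arrays, below the median probe in both groups by limma.

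Complex II, which links the citric acid cycle to the respiratory chain, was the least occupied of the 5 groups. Of its 4 genes, 0 lay above the median probe with either subunit (all genes: 37.9% with Rpb4 and 38.4% with Rpb3). SDH1, the flavoprotein, lay below it, at -0.28 and -0.26 on the Rpb4 arrays and -0.32 and -0.17 on the Rpb3 arrays (limma adjusted p = 0.0132 with Rpb4 and 0.0150 with Rpb3). SDH2, the iron-sulfur subunit, stood at 0.05 on both Rpb4 arrays and at 0.04 and 0.11 on the Rpb3 arrays, and passed in neither group. The membrane anchors SDH3 and SDH4 had their lowest value on Rpb3 array 2. SDH3 stood at 0.02 on both Rpb4 arrays and at 0.01 and -0.43 on the Rpb3 arrays, and SDH4 at -0.16 and -0.05 on the Rpb4 arrays and -0.07 and -0.42 on the Rpb3 arrays.

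In complex III, the cytochrome bc1 complex, all 7 measured genes lay above the median probe with Rpb3, where 38.4% of all genes did. With Rpb4, 4 of them did (CYT1, QCR6, QCR8 and QCR9), where 37.9% of all genes did. QCR6, the acidic hinge subunit, was the most occupied gene of the whole set (3 probes, chromosome 6, 224291 to 224776). It stood at 1.17 and 1.20 on the Rpb4 arrays and 1.41 and 1.5 on the Rpb3 arrays, higher than 94.2% of all genes with Rpb4 and 94.5% with Rpb3. The small membrane-associated subunits QCR8 (chromosome 10, 106497 to 106555) and QCR9 (chromosome 7, 859095 to 859153) rested on 1 probe each. QCR8 stood at 0.65 and 0.64 on the Rpb4 arrays and 1.02 and 1.33 on the Rpb3 arrays, and QCR9 at 0.32 and 0.42 on the Rpb4 arrays and 0.83 and 1.22 on the Rpb3 arrays. For both genes the Rpb4 arrays lay below the Rpb3 arrays and closer to each other than the Rpb3 arrays did.

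The catalytic and core subunits of complex III were less occupied. CYT1, cytochrome c1, stood at 0.22 and 0.33 on the Rpb4 arrays and 0.49 and 0.42 on the Rpb3 arrays. The core proteins COR1 and QCR2 averaged 0.21 and 0.06 with Rpb4, where neither passed, and 0.56 and 0.39 with Rpb3, where both lay above the median probe (limma adjusted p = 0.00523 and 0.00402). QCR10, a small accessory subunit with 1 probe, averaged 0.15 with Rpb4, not passing, and 0.32 with Rpb3. In each of these 4 genes both Rpb4 arrays lay below both Rpb3 arrays, an order that 28.7% of all genes had.

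Complex IV, cytochrome c oxidase, had 5 of 8 measured genes above the median probe with Rpb4 (all genes: 37.9%) and 7 with Rpb3 (38.4%). Its subunit V exists as the isoforms COX5A and COX5B, of which COX5A is known as the aerobic and COX5B as the hypoxic form. COX5B (2 probes, chromosome 9, 155257 to 155622) stood at 0.69 and 0.70 on the Rpb4 arrays and at 0.59 on both Rpb3 arrays. COX5A (1 probe) stood at 0.51 and 0.47 on the Rpb4 arrays and at 0.75 and 0.76 on the Rpb3 arrays. The order of the isoforms was therefore opposite in the groups: with Rpb4 COX5B was above COX5A on both arrays, and with Rpb3 it was below on both. That difference between the isoforms was not tested, and the whole-cell extract at COX5B also differed between the strains, as given below.

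COX8, COX7 and COX12 passed in both groups, with averages of 0.47, 0.27 and 0.24 with Rpb4 and 0.50, 0.48 and 0.60 with Rpb3. COX6 and COX13 passed with Rpb3 only, COX6 at 0.13 and 0.24 on the Rpb4 arrays and 0.63 and 0.47 on the Rpb3 arrays, and COX13 at 0.02 and -0.01 on the Rpb4 arrays and 0.51 and 0.24 on the Rpb3 arrays. COX4, with 1 probe, passed in neither group, since its Rpb3 arrays were far apart: 0.27 and 0.29 on the Rpb4 arrays and 0.53 and 0.06 on the Rpb3 arrays.

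The ATP synthase genes ranged from among the most to among the least occupied of the set. The catalytic subunits alpha and beta, ATP1 and ATP2, were measured over 6 and 7 probes. ATP2 (chromosome 10, 647292 to 648660) stood at 0.86 and 0.91 on the Rpb4 arrays and 1.12 and 1.28 on the Rpb3 arrays, and ATP1 (chromosome 2, 37164 to 38602) at 0.65 and 0.63 on the Rpb4 arrays and 0.82 and 0.91 on the Rpb3 arrays. Both genes passed as above the median probe with each subunit, and their Rpb4 arrays lay below their Rpb3 arrays. The subunits of the rotating stalk differed among themselves. ATP15, subunit epsilon (1 probe, chromosome 16, 30137 to 30195), stood at 0.29 and 0.35 on the Rpb4 arrays and 0.82 and 1.01 on the Rpb3 arrays. ATP16, subunit delta, stood at -0.22 and -0.17 on the Rpb4 arrays and -0.04 and -0.19 on the Rpb3 arrays, and ATP3, subunit gamma, at -0.03 and -0.04 on the Rpb4 arrays and 0.10 and -0.15 on the Rpb3 arrays. Only ATP15 of these 3 lay above the median probe, and ATP16 lay below it with Rpb4 (limma adjusted p = 0.0378).

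Among the subunits of the ATP synthase membrane part and peripheral stalk, ATP17 (subunit f), ATP14 (subunit h) and ATP4 (subunit b) lay above the median probe in both groups. Their averages were 0.61, 0.31 and 0.28 with Rpb4 and 0.68, 0.55 and 0.33 with Rpb3. ATP5, the oligomycin sensitivity-conferring protein, and ATP20 (subunit g) passed with Rpb3 only, at averages of -0.07 and 0.05 with Rpb4 and 0.21 and 0.29 with Rpb3. ATP7 (subunit d) passed in neither group and had the widest gap between arrays of all 33 genes: 0.01 and -0.01 on the Rpb4 arrays, against 0.40 and -0.33 on the Rpb3 arrays. The direction of its Rpb3 value thus depended on which Rpb3 array was read.

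The deposited files also carry the authors' own flags for bound regions on each array. By those flags NDE1, QCR6 and ATP2 were the genes of the set with a flagged probe, on all 4 arrays. That is 3 of 33 genes, or 9.09%, where 11.6% and 11.5% of all genes had one on the Rpb4 arrays and 11.8% and 10.7% on the Rpb3 arrays. It is a share near that of all genes.

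Set against Rpb3, Rpb4 was lower over most of these genes, but few of the single differences exceeded what 2 arrays a group can resolve. Each subunit was tagged in its own strain, so a difference between the subunits cannot be told apart from one between the strains. The Rpb4 mean was below the Rpb3 mean in 30 of the 33 genes (90.9%), where it was below in 46.4% of all genes, and the median difference was -0.21, beside 0.01 over all genes. Over the 4 pairings of 1 Rpb4 array with 1 Rpb3 array that median lay between -0.22 and -0.18. Both Rpb4 arrays were below both Rpb3 arrays in 19 genes (57.6%), where 28.7% of all genes had that order. The opposite order was found in 2 genes, SDH3 and COX5B, where 31.8% of all genes had it. By limma 1 of 33 genes (3.03%) passed as lower with Rpb4, where 2.51% of all genes did, and 0 passed as higher, where 0.929% did. At an unadjusted p under 0.05, 15 genes (45.5%) were lower, where 13.2% of all genes were, and 0 were higher, where 8.67% were. The median difference kept its sign but shrank to -0.13 with all arrays set to one scale and -0.11 after quantile normalization, where 28 and 24 of the 33 genes were negative, against 44.6% and 41.5% of all genes. Over the 22 genes with at least 2 probes it was -0.074, beside 0.02 over all such genes. The count of genes passing as lower was 17 without Rpb3 array 1, where 29.0% of all genes passed, and 19 without Rpb3 array 2, where 15.7% did. Passing as higher were 5 without Rpb3 array 1, where 33.6% of all genes passed, and 0 without Rpb3 array 2, where 10.5% did. Without Rpb4 array 1, 0 passed as lower, where 0.528% of all genes did, and without Rpb4 array 2 0 passed, where 0% did.

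The gene that passed was NDE1. Its values of 0.88 and 0.90 on the Rpb4 arrays and 1.39 and 1.42 on the Rpb3 arrays gave a difference of -0.51 ± 0.06 (SE, limma adjusted p = 0.0285), an IP/WCE ratio with Rpb4 0.702 times that with Rpb3. The call ended with all arrays on one scale (-0.35, adjusted p = 0.294), after quantile normalization (-0.26, adjusted p = 0.116), centred on the 25th percentile (-0.56, adjusted p = 0.0759), with the median over probes (-0.44, adjusted p = 0.0599), and without Rpb4 array 1 (-0.50, adjusted p = 0.447) or Rpb4 array 2 (-0.52, adjusted p = 0.416). ATP15 had a larger difference, -0.59 ± 0.09, that just missed the threshold (limma adjusted p = 0.0504). It passed after quantile normalization (-0.47, adjusted p = 0.0175) and after normexp background correction (-1.04, adjusted p = 0.0121), and missed it on the 25th percentile (-0.65, adjusted p = 0.122), without Rpb4 array 1 (-0.57, adjusted p = 0.416) and without Rpb4 array 2 (-0.62, adjusted p = 0.355).

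By complex, the differences were not alike. All 7 measured genes of complex III were lower with Rpb4 on both arrays, an order that 28.7% of all genes had. Their differences ran from -0.65 ± 0.15 (QCR9) to -0.17 ± 0.07 (QCR10), with a median of -0.34. By limma none passed as lower after adjustment, where 2.51% of all genes did. At an unadjusted p under 0.05, 5 were lower, where 13.2% of all genes were. Complex IV had a median of -0.24, with COX13, COX6 and COX12 between -0.37 and -0.36. The ATP synthase had a median of -0.22, with 11 of 11 differences negative, where 46.4% of all genes were negative. Complex II had a median of 0.06, or 0.13 without Rpb3 array 1 and 0.014 without Rpb3 array 2, with 2 of 4 differences negative. SDH1 and SDH2 differed by -0.02 ± 0.07 and -0.02 ± 0.06, SDH3 by 0.23 ± 0.16 and SDH4 by 0.14 ± 0.14, and none passed. After normexp the medians were -0.64 for complex III and -0.41 for complex IV, and after quantile normalization -0.14 for complex IV and -0.089 for the ATP synthase. Without Rpb3 array 1 the ATP synthase median was -0.13, with 8 of 11 differences negative, and without Rpb3 array 2 it was -0.18, with 11 negative. Over the 8 ATP synthase genes with at least 2 probes it was -0.074. Among them, ATP3 differed by -0.01 ± 0.10 and ATP7 by -0.03 ± 0.26. Whether the complexes differed from each other was not tested. NDI1 and NDE2, at -0.02 ± 0.06 and -0.02 ± 0.07, were set apart from NDE1 by nearly equal levels of the subunits.

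**Figure D2:**
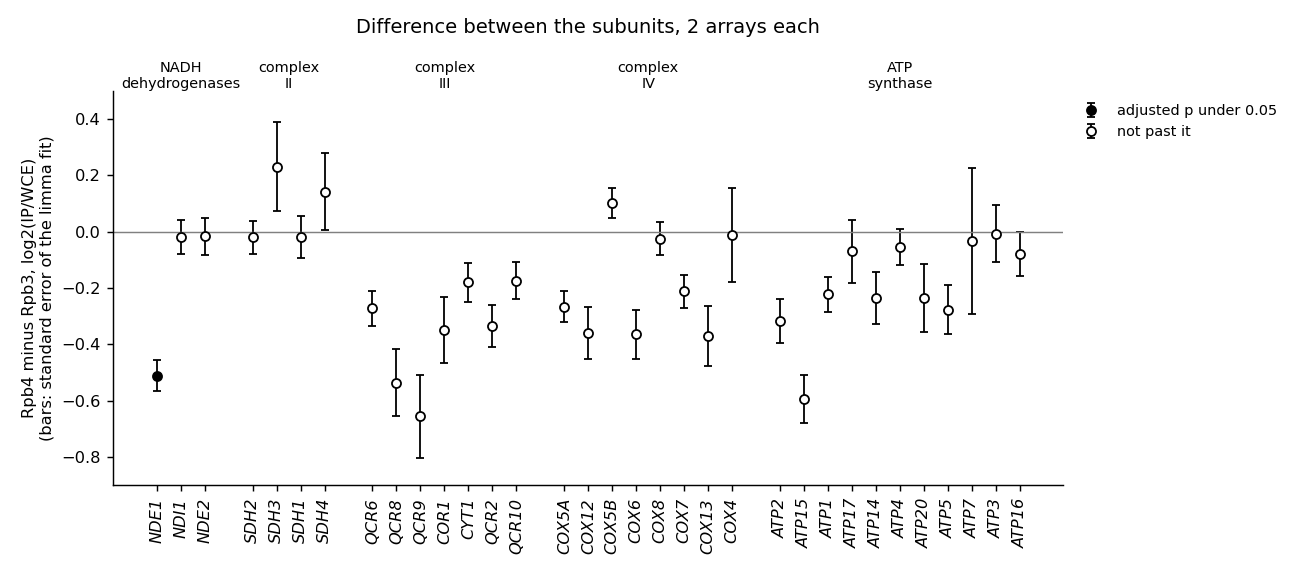
Difference of Rpb4 minus Rpb3 in log2(IP/WCE) for each of the 33 measured genes, by complex and in the same order as the plot of values by array. Bars are the standard error of the limma fit, the filled point passed an adjusted p of 0.05 and open points did not. NDE1, at -0.51, is the filled point, and the values run from -0.65 (QCR9) to 0.23 (SDH3).

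The difference moved mostly with the IP channel. Taken alone and centred the same way, the IP signal had a median Rpb4 minus Rpb3 difference of -0.19 over the 33 genes, beside -0.01 over all genes, and was negative in 30 of them. The whole-cell extract signal had a median difference of 0.04, beside 0.00 over all genes. The sign of the IP difference was opposite to that of the extract difference in 23 of the 33 genes (69.7%) and in 53.5% of all genes.

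Among all genes those with fewer probes were more often negative, while the oxidative phosphorylation genes showed no such order. The 11 genes with 1 probe had a median difference of -0.24, and all 11 were negative, where 62.8% of the 457 genes with 1 probe were. The 14 genes with 2 or 3 probes had a median of -0.07, with 11 negative, where 59.7% of 1495 such genes were. The 8 genes with 4 or more probes had a median of -0.12, with all 8 negative, where 38.6% of 3538 such genes were. The share of negative genes was higher in the set than among all genes in each class, a description with no test.

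Fragments of 400 to 500 bp can carry signal from neighbouring genes into a short one. Of the 19 genes with 1 or 2 probes, 8 had another gene probed within 500 bp, and in 2 of these a neighbour was higher than the gene itself with both subunits. COX6, at averages of 0.19 with Rpb4 and 0.55 with Rpb3, lay 128 bp from YHR050W-A, at 0.67 with Rpb4 and 1.05 with Rpb3. ATP17, at 0.61 with Rpb4 and 0.68 with Rpb3, lay 481 bp from LSM6, at 0.71 with Rpb4 and 0.99 with Rpb3. The other neighbours were lower: HAL5 next to QCR8, HOS4 next to COX5B, SMF2 next to COX6, CST9 next to COX8, RIC1 next to COX12, HCS1 next to ATP7, MDL2 next to ATP15 and ARH1 next to ATP17 stood between -0.39 and 0.35 with Rpb4 and between -0.41 and 0.21 with Rpb3. MDL2 had nearly equal subunits (difference 0.00, limma adjusted p = 0.987) where ATP15 had -0.59. QCR6 and ATP2, among the most occupied genes, also had occupied neighbours. QCR6 lay 372 bp from MIN10, which averaged 1.20 with Rpb4 and 2.11 with Rpb3, and ATP2 lay 253 bp from DMO1, which averaged 0.53 with Rpb4 and 1.51 with Rpb3. The part of neighbouring signal in these values was not tested.

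Probes in promoters, which the choice of genes did not use, were available for 30 of the 35 genes, QCR7 and COX9 among them. Both Rpb4 arrays were below both Rpb3 arrays at 23 of the 30 promoters (76.7%), where 60% of all 5221 promoters had that order, and the median difference was -0.29, beside -0.18 over all promoters. A lower Rpb4 value at promoters was therefore general in these arrays. By limma 2 of the 30 promoters (6.67%) passed as lower with Rpb4, where 4.71% of all promoters did, and 0 passed as higher, where 0.287% did. They belonged to QCR8 and COX9. The QCR8 promoter, with 2 probes, stood at 0.76 and 0.66 on the Rpb4 arrays and 1.25 and 1.39 on the Rpb3 arrays, a difference of -0.61 ± 0.10 (limma adjusted p = 0.0484). It ran the same way as the probe inside QCR8, and the call ended after quantile normalization (-0.40, adjusted p = 0.0567).

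COX9, a small membrane subunit of complex IV, had 2 promoter probes at -0.10 and -0.04 on the Rpb4 arrays and 0.83 and 0.99 on the Rpb3 arrays. Its Rpb4 values lay at the median probe and its Rpb3 values well above it, a difference of -0.98 ± 0.10 (limma adjusted p = 0.0282) that held after quantile normalization (-0.90, adjusted p = 0.0129). The promoter is shared with the divergent gene IDP1, the mitochondrial NADP-dependent isocitrate dehydrogenase. IDP1 itself averaged -0.06 with Rpb4 and 0.54 with Rpb3, a difference of -0.60 ± 0.06 (limma adjusted p = 0.0229), so the signal cannot be assigned to COX9 alone. Both promoter calls ended without either Rpb4 array: the QCR8 promoter was at -0.66 and -0.56 (adjusted p = 0.360 and 0.492) and the COX9 promoter at -0.96 and -1.01 (adjusted p = 0.155 and 0.128) without Rpb4 array 1 and array 2.

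The promoter of QCR7, the only other gene seen through its promoter alone, stood at 0.62 and 0.58 on the Rpb4 arrays and 1.09 and 0.74 on the Rpb3 arrays, above the median probe with both subunits and not passing between them. QCR9 had the second largest promoter difference, at 0.35 and 0.36 on the Rpb4 arrays and 1.03 and 1.44 on the Rpb3 arrays (difference -0.88 ± 0.16, limma adjusted p = 0.0553). NDE1 differed at its promoter as inside, by -0.50 ± 0.10 (limma adjusted p = 0.0583), and did not pass there. The promoters of ATP1, ATP3, ATP5, ATP7, ATP14, ATP15 and ATP16 were negative on both Rpb4 arrays, while those of ATP4 and ATP20 were positive. ATP4 stood at 0.88 and 0.78 on the Rpb4 arrays and 0.96 and 1.05 on the Rpb3 arrays. ATP20 stood at 0.50 and 0.29 on the Rpb4 arrays and 0.29 and 0.94 on the Rpb3 arrays.

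Placed by distance from the gene start as the files annotate it, the oxidative phosphorylation genes stood above the mean of all genes from 300 bp before the start onward. In the bin from 300 bp before it to the start, 28 of these genes averaged 0.16 and 0.12 on the Rpb4 arrays and 0.50 and 0.54 on the Rpb3 arrays, where 4840 genes averaged 0.06 and 0.05 with Rpb4 and 0.29 and 0.27 with Rpb3. In the first 300 bp of the gene, 29 of them averaged 0.20 and 0.25 on the Rpb4 arrays and 0.47 and 0.46 on the Rpb3 arrays, where 4866 genes averaged -0.01 and 0.03 with Rpb4 and 0.12 and 0.09 with Rpb3. Among all genes the group means lay closer together further into the gene, at 0.02 with Rpb4 and 0.04 with Rpb3 from 300 to 600 bp and at 0.16 with Rpb4 and 0.14 with Rpb3 from 600 to 1200 bp. The 11 oxidative phosphorylation genes long enough to reach that bin averaged 0.32 with Rpb4 and 0.53 with Rpb3, a bin too thin to read a trend from.

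**Figure D3:**
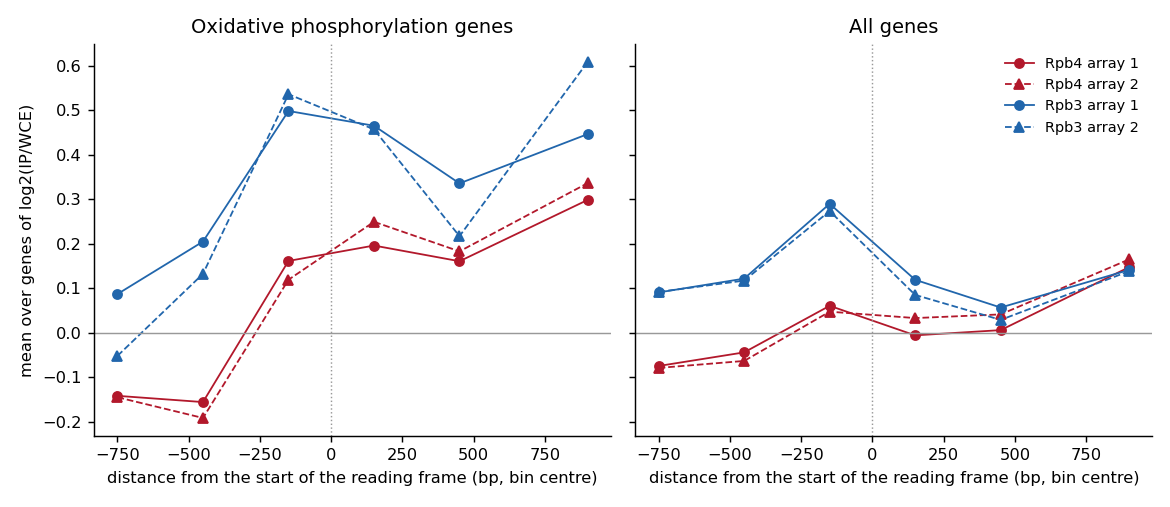
Mean log2(IP/WCE) by distance from the gene start in bp (bin centres), for the oxidative phosphorylation genes on the left and all genes on the right, a line per array (red Rpb4, blue Rpb3, circles and solid lines array 1, triangles and dashed lines array 2). The bins hold 8 to 29 oxidative phosphorylation genes, and the genes differ between bins. Both blue lines lie above both red lines on the left in every bin, while on the right the lines cross from 300 bp onward.

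Within genes, 8 of the set had the 4 or more probes needed to set the 3' side of the gene against the 5' side. With Rpb4, 3 of the 8 (37.5%) were higher on the 3' side, where 41.1% of 3534 genes were, and 1 (12.5%) was lower, where 2.72% were (limma). With Rpb3, 2 (25%) were higher on the 3' side, where 29.9% were, and 1 was lower, where 4.07% were. NDE2 and COR1 rose toward the 3' side with both subunits, by 0.49 and 0.50 with Rpb4 and 0.54 and 0.45 with Rpb3. SDH2 was lower there with both, by -0.34 with Rpb4 and -0.31 with Rpb3, and ATP2 was higher by 0.34 with Rpb4 and passed there alone, at 0.00 with Rpb3. Between the subunits 0 of the 3534 genes passed in this measure by limma, which is 0%. At an unadjusted p under 0.05, 345 genes (9.76%) did, 3 of the 8 among them (NDI1, NDE1 and ATP2, by 0.36, 0.33 and 0.34, each more 3'-weighted with Rpb4).

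The whole-cell extract is the input behind each ratio, and its signal differed between the strains at a few of the nuclear genes. By limma 1 of 33 genes (3.03%) was lower in the Rpb4 extract, where 5.54% of all genes were, and 2 (6.06%) were higher, where 3.32% were. The lower one was COX5B, at -0.46 (limma adjusted p = 0.0122). COX5B is the only gene of the set on chromosome 9, whose 197 genes had a median extract difference of -0.42, beside 0.01 for the other nuclear chromosomes. A lower input raises the ratio, and at COX5B the IP signal alone was lower with Rpb4, by -0.37, while the ratio was higher, by 0.10. QCR8 and QCR9 were higher in the Rpb4 extract, by 0.14 and 0.14 (limma adjusted p = 0.0337 and 0.0370), beside differences in the ratio of -0.54 and -0.65.

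Genes that work with these complexes were read from 8 further lists. Of all genes, 37.9% lay above the median probe with Rpb4 and 38.4% with Rpb3. Between the subunits 2.51% of all genes passed as lower with Rpb4 and 0.929% as higher. Of 7 measured subunits and regulatory proteins outside the set, 4 lay above the median probe with Rpb4 and 7 with Rpb3, and 3 passed between the subunits, 2 lower and 1 higher with Rpb4. RIP1, the Rieske iron-sulfur protein of complex III, stood at -0.36 and -0.30 on the Rpb4 arrays and 0.45 and 0.43 on the Rpb3 arrays, a difference of -0.76 ± 0.06 over 3 probes (limma adjusted p = 0.0156). It lay below the median probe with Rpb4 and above it with Rpb3. INH1, the inhibitor of ATP hydrolysis by the ATP synthase, stood at -0.15 and -0.18 on the Rpb4 arrays and 1.07 and 0.88 on the Rpb3 arrays (difference -1.14 ± 0.08, limma adjusted p = 0.0156, 1 probe). Its extract signal was higher in the Rpb4 strain by 0.32 (limma adjusted p = 0.0151), and its IP signal alone differed by -0.84. STF2, a factor that stabilises that inhibition, ran the other way, at 1.58 and 1.66 on the Rpb4 arrays and 0.96 and 0.84 on the Rpb3 arrays (0.72 ± 0.07, limma adjusted p = 0.0251, 1 probe), and its extract signal in the Rpb4 strain differed by -0.34 (limma adjusted p = 0.00491) and its IP signal alone by 0.36. All 3 calls ended without Rpb4 array 1 (RIP1 -0.73, INH1 -1.15 and STF2 0.76, limma adjusted p = 0.159, 0.0578 and 0.167) and without Rpb4 array 2 (-0.79, -1.13 and 0.68, adjusted p = 0.144, 0.0877 and 0.256). With all arrays on one scale the calls of INH1 (-1.11, adjusted p = 0.0649) and STF2 (0.89, adjusted p = 0.0736) ended too.

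INH1 lies next to LYS20, a lysine biosynthesis gene, which averaged 0.77 with Rpb4 and 3.75 with Rpb3. The INH1 promoter showed the same gap, at 0.79 and 0.63 on the Rpb4 arrays and 3.22 and 3.84 on the Rpb3 arrays (-2.82 ± 0.23, limma adjusted p = 0.0203). The promoter of STF1, a relative of INH1, stood at 0.70 and 0.41 on the Rpb4 arrays and 2.33 and 2.80 on the Rpb3 arrays (-2.01 ± 0.20, limma adjusted p = 0.0282), beside LYS21, which averaged 0.34 with Rpb4 and 2.31 with Rpb3. At both neighbours the extract signal was also higher in the Rpb4 strain, by 1.5 at LYS20 and 0.79 at LYS21 (limma adjusted p = 0.00197 for each), and the IP signal alone differed by -1.49 and -1.20. The share of these neighbours in the INH1 and STF1 values was not tested. In the other lists the promoters of PET54, COQ11 and MPC3 passed as lower with Rpb4, by -0.70, -0.72 and -0.59 (limma adjusted p = 0.0446, 0.0410 and 0.0446).

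Of 9 genes for cytochrome c and other electron donors, 5 lay above the median probe with Rpb4 and 6 with Rpb3. CYC1, the main cytochrome c, passed as lower with Rpb4: its 1 probe stood at 0.45 and 0.43 on the Rpb4 arrays and 1.38 and 1.72 on the Rpb3 arrays (-1.11 ± 0.13, limma adjusted p = 0.0312). The extract signal at CYC1 was higher in the Rpb4 strain by 0.25 (limma adjusted p = 0.00665), and the IP signal alone differed by -0.87. CYC7, the minor, hypoxic form, had the highest mean of the list and did not pass, at 1.21 and 1.20 on the Rpb4 arrays and 1.70 and 1.56 on the Rpb3 arrays. CYB2, which donates electrons from lactate, had the lowest mean, at -0.25 with Rpb4 and -0.33 with Rpb3. Among 14 inner membrane carriers and porins, 8 lay above the median probe with Rpb4 and 9 with Rpb3, and 3 were lower with Rpb4. The citrate carrier CTP1 stood at 0.29 and 0.21 on the Rpb4 arrays and 1.22 and 1.23 on the Rpb3 arrays (-0.97 ± 0.06, limma adjusted p = 0.0115). The oxaloacetate carrier OAC1 and the pyruvate carrier subunit MPC2 differed by -0.82 ± 0.09 and -0.55 ± 0.06, and the succinate-fumarate carrier SFC1 had the lowest mean, at -0.89 with Rpb4 and -0.69 with Rpb3. Without Rpb4 array 1 and without Rpb4 array 2 the calls of CYC1 (-1.12 and -1.11, limma adjusted p = 0.0993 and 0.124), CTP1 (-1.01 and -0.94, 0.0605 and 0.103), OAC1 (-0.83 and -0.80, 0.152 and 0.191) and MPC2 (-0.50 and -0.60, 0.447 and 0.303) ended. On one scale those of CTP1 (-0.88, limma adjusted p = 0.0716), OAC1 (-0.69, 0.219) and MPC2 (-0.33, 0.427) ended, after quantile normalization those of OAC1 (-0.60, 0.0826) and MPC2 (-0.21, 0.230), and on the 25th percentile those of CYC1 (-1.16, 0.0749) and MPC2 (-0.60, 0.0735). MPC2 also failed after normexp (-0.51, limma adjusted p = 0.1) and with trend and robust variance (-0.55, 0.0629).

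Assembly factors and ubiquinone synthesis genes had medians close to each other with the 2 subunits. The 53 measured assembly factors had medians of 0.03 with Rpb4 and -0.02 with Rpb3, the 11 ubiquinone synthesis genes medians of -0.12 with Rpb4 and -0.18 with Rpb3, and 0 genes of either list passed between the subunits by limma (2 lower and 2 higher of the assembly factors, and 0 lower and 2 higher of the ubiquinone genes, at an unadjusted p under 0.05). CBS1, a translational activator of the mitochondrial COB transcript, stood highest of the assembly factors at averages of 1.23 with Rpb4 and 1.19 with Rpb3. ATP25 had their lowest mean over all 4 arrays, at -0.36 with Rpb4 and -0.48 with Rpb3, though the lowest Rpb4 average of that list was -0.57. COQ6 stood highest of the ubiquinone genes at 0.60 with Rpb4 and 0.34 with Rpb3. COQ10 had their lowest mean over all 4 arrays, at -0.32 with Rpb4 and -0.55 with Rpb3, though the lowest Rpb4 average of that list was -0.36. Of 3 paralogues of complex II subunits, 0 lay above the median probe with either subunit: SDH9, a paralogue of SDH1, averaged -0.57 with Rpb4 and -0.56 with Rpb3, and SHH4, a paralogue of SDH4, averaged -0.06 with Rpb4 and 0.04 with Rpb3.

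Among the 16 regulators, 12 lay above the median probe with Rpb4 (all genes: 37.9%) and 11 with Rpb3 (38.4%). HAP1 passed as higher with Rpb4, at 1.40 and 1.44 on the Rpb4 arrays and -0.08 and 0.20 on the Rpb3 arrays over 18 probes (1.36 ± 0.11, limma adjusted p = 0.0181), and its extract signal was lower in the Rpb4 strain, by -0.49 (limma adjusted p = 0.00197). The IP signal of HAP1 alone was higher by 0.85, beside 1.36 for the ratio. The call held without Rpb4 array 1 (1.38, adjusted p = 0.0479) and ended without Rpb4 array 2 (1.34, adjusted p = 0.0785) and on the 25th percentile (1.31, adjusted p = 0.0560). MOT3, a repressor of hypoxic genes, had the highest mean over all 4 arrays, at 0.71 with Rpb4 and 0.99 with Rpb3. CAT8, an activator of genes for growth without glucose, had the lowest, at -0.52 with Rpb4 and -0.74 with Rpb3.

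**Figure D4:**
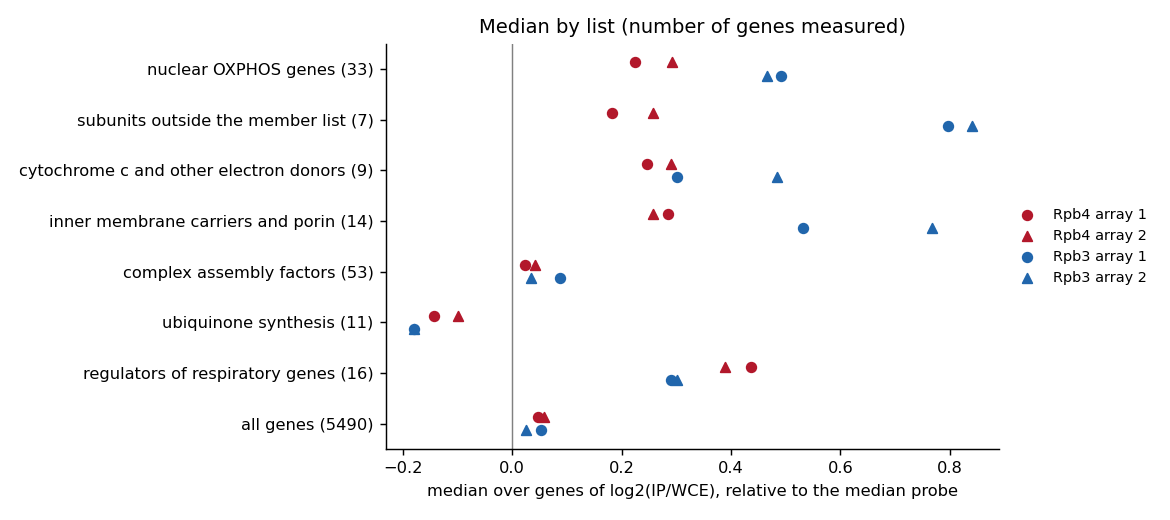
Median log2(IP/WCE) over the genes of each list on each array (x axis), with the number of genes measured in brackets, red for Rpb4 and blue for Rpb3, circles array 1 and triangles array 2. Rpb4 medians lie below Rpb3 medians for the nuclear oxidative phosphorylation genes (0.22 and 0.29 with Rpb4, 0.49 and 0.47 with Rpb3), the 7 further subunits, the 14 carriers and the 9 cytochrome c and other electron donor genes (0.25 and 0.29 with Rpb4, 0.30 and 0.48 with Rpb3), while the 53 assembly factors and all genes lie near 0 on every array.

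The subunits encoded in mitochondrial DNA are not transcribed by RNA polymerase II. Their extract signal differed between the strains. At COX1, the median WCE foreground over background was 1.83 and 1.51 on the Rpb4 arrays and 19.7 and 14.9 on the Rpb3 arrays, and at COB it was 1.72 and 1.36 on the Rpb4 arrays and 8.98 and 7.52 on the Rpb3 arrays. On Rpb4 arrays 1 and 2, 4 and 7 of the 7 COX1 probes and 3 and 4 of the 5 COB probes were under 2 times background, so the size of the difference between the strains was not measured there. ATP6 stood at 3.06 and 1.21 times background on the Rpb4 arrays and 96.1 and 81.8 on the Rpb3 arrays, and COX3 at 19.9 and 2.12 on the Rpb4 arrays and 313 and 314 on the Rpb3 arrays, neither passing. ATP8, with 1 probe, was dim in both strains, at 1.24 and 1.30 on the Rpb4 arrays and 2.12 and 2.14 on the Rpb3 arrays. OLI1, with 1 probe, was the exception, at 261 and 256 times background on the Rpb4 arrays and 211 and 218 on the Rpb3 arrays (0.36, limma adjusted p = 0.00386). The nuclear set had 171 and 156 times background on the Rpb4 arrays and 167 and 174 on the Rpb3 arrays, and none of its 93 probes was under 2 times background.

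At COX1 the occupancy ratios rest on signals near background with Rpb4. They stood at -0.21 and 1.92 on the Rpb4 arrays and -1.65 and -1.21 on the Rpb3 arrays, so the Rpb4 arrays disagreed in sign. OLI1, bright on all 4 arrays, had ratios of -1.92 and -1.65 on the Rpb4 arrays and -1.64 and -1.13 on the Rpb3 arrays, below the median probe with both subunits and below every gene of the nuclear set.

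**Figure D5:**
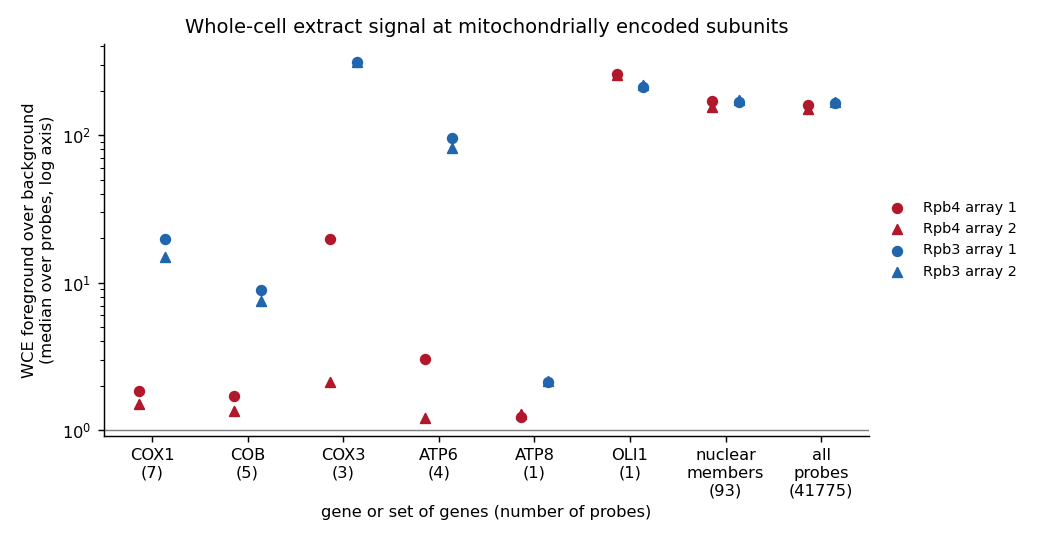
Whole-cell extract signal as foreground over background (log axis, median over the probes of each gene or set, number of probes in brackets), red for the Rpb4 arrays and blue for the Rpb3 arrays, circles array 1 and triangles array 2. COX1, COB and ATP6 lie between 1.21 and 3.06 on the Rpb4 arrays and between 7.52 and 96.1 on the Rpb3 arrays, while OLI1, the nuclear set and all probes lie at 151 or above on every array.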

How the data were processed

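The submitters' processing notes name Agilent Feature Extraction 9.1 for the arrays. Each deposited file holds an intensity for the foreground and the background of both channels, a normalized intensity of IP and of WCE, and their log2 ratio, per the file headers. By the values, the normalized IP is the foreground less the local background and 1 constant per array. The WCE was rescaled as well, and whether by 1 factor per array was not tested. The deposited series table repeats these log2 ratios (column medians -0.04, -0.01, -0.04 and -0.04). The authors' p-value and score columns were not used here. The genome build of the probe positions is not given in the sources used here. A table of the R64 assembly served for names only.

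Excluded probes and control spots were left out. Ratios were set relative to the median of the 41775 data probes on their array, and the mean was taken over the probes the files annotate as inside a gene. The median foreground was 72.9 to 126 times background in the IP channel and 151 to 168 in the WCE channel, and the number of arrays limits the precision. The model was limma's lmFit and eBayes (version 3.58.1, R 4.3.3) with all 4 arrays in 1 fit, two-sided, adjusted by Benjamini-Hochberg at 0.05 over all genes. Promoter probes, the WCE channel and the 3' minus 5' side (genes with at least 4 probes) were fitted the same way. The fit was tested on simulated data. Python 3.11.15, pandas 2.3.3 and matplotlib 3.10.9 made the tables and figures.

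The genes, the lists and the tests were chosen with earlier results of these data known. Named were all 35 genes, from each other list the genes passing between the subunits and those of highest and lowest mean, the neighbours within 500 bp of genes with 1 or 2 probes, and RPB3 and RPB4. Neighbours of QCR6, ATP2, COX9, INH1 and STF1 were added after their values were seen. Promoter sequences and motifs were not analysed here. Alternatives were background correction, scaling, centring, gene summary, probe filters, the variance model and leaving out each array.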

Additional observations from a re-analysis of the deposited data

Results flagged for a closer look

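Inside genes, the difference between the subunits passed the test for NDE1 (-0.51) in the set, and for RIP1 (-0.76), INH1 (-1.14), CYC1 (-1.11), OAC1 (-0.82), CTP1 (-0.97), MPC2 (-0.55), STF2 (0.72) and HAP1 (1.36) in the related lists. At promoters it passed for QCR8 (-0.61) and COX9 (-0.98) in the set, and for INH1 (-2.82), STF1 (-2.01), PET54 (-0.70), COQ11 (-0.72) and MPC3 (-0.59) in the lists. In the whole-cell extract the strains differed in the set at QCR8 (0.14), QCR9 (0.14) and COX5B (-0.46), and among the mitochondrial genes at OLI1 (0.36). At COX1 and COB the fitted extract values were -4.57 and -4.62, against Rpb4 signals of 1.83 and 1.51 times background at COX1 and 1.72 and 1.36 at COB, so they are not measured sizes. All are Rpb4 minus Rpb3 values on the log2 scale with a limma adjusted p under 0.05, and each group had 2 arrays.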

How the results depend on the processing

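With 2 arrays a group, the counts follow the spread of the arrays kept. The genes above the median probe with Rpb4 were 17 of 33, where 37.9% of all genes were. With each array centred on its 25th percentile they were 27, where 65.5% of all genes were. Over the 22 genes with at least 2 probes they were 10, where 37.2% of all such genes were. With Rpb3 they were 24 of 33, where 38.4% of all genes were, and 14 of those 22, where 37.4% were. Genes below the median probe with Rpb4, 3 at first (all genes: 25.8%), were 1 after normexp (20.2%) and 0 on the 25th percentile (5.46%). With Rpb3, 2 at first (all genes: 29.2%), they were 0 after normexp (25.7%), 0 on the 25th percentile (5.68%) and 4 when centred on the median gene (33.6%). The 25th percentile turned NDE2 to 0.087 with Rpb4 and 0.16 with Rpb3, SDH1 to 0.038 with Rpb4 and 0.11 with Rpb3, ATP3 to 0.27 with Rpb4 and 0.33 with Rpb3, and ATP16 to 0.11 with Rpb4 and 0.24 with Rpb3, by construction of a lower zero.

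Genes lower with Rpb4 were 1 at first, where 2.51% of all genes were. After normexp they were 5 (all genes: 5.05%) and after quantile normalization 3 (3.62%). With probes inside 1 gene only they were 2 (all genes: 2.76%), and without dim probes 2 (2.74%). Without probes whose extract differed they were 2 (all genes: 2.96%), and with trend and robust variance 2 (2.81%). On the 25th percentile they were 0 (all genes: 0.911%), and with the median over probes 0 (1.93%). The median difference of -0.21 was -0.28 after normexp, -0.11 after quantile normalization, -0.13 on one scale, -0.26 on the 25th percentile, -0.15 with the median over probes and -0.074 over genes with at least 2 probes.

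Leaving out each array in turn gave 10 to 21 genes above with Rpb4 and 0 to 5 below, 22 to 27 above with Rpb3 and 0 to 7 below, 0 to 5 higher and 0 to 19 lower with Rpb4, and a median difference of -0.23 to -0.18. Promoter and extract calls also changed with the array left out. The difference ran from -0.68 to -0.54 at the QCR8 promoter and from -1.06 to -0.90 at the COX9 promoter. Without Rpb3 array 1 or array 2 the spread is that of the closer Rpb4 pair, and the lone array is assumed to vary like it. More genes passed as lower with Rpb4 in those fits. Fewer passed without either Rpb4 array. Over the same settings the difference ran from -0.24 to 0.22 for COX4, from -0.13 to 0.12 for ATP3 and from -0.40 to 0.33 for ATP7, and the Rpb3 value from -0.15 to 0.095 for ATP3 and from -0.33 to 0.40 for ATP7, with the ends set by leaving out 1 or the other Rpb3 array. No paired analysis was possible because the labels give no replicate numbers, and arrays were numbered in accession order only. No term for slide was fitted.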
